A study of Mus musculus with 8 samples.

Results

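The interferon regulatory factor (IRF) genes encode a family of transcription factors that share a DNA-binding domain and recognise GAAA repeats in the promoters of interferons and of the genes that interferons induce. The 8 family genes described here, *Irf1*, *Irf2*, *Irf3*, *Irf4*, *Irf5*, *Irf7*, *Irf8* and *Irf9*, were taken by symbol from the 54838 gene identifiers of the count files, and all 8 were among the 13903 genes with enough reads to test. The 8 libraries hold RNA of splenic natural killer (NK) cells of mice, sorted as CD45+, CD49b+ and CD3-. The 4 hNK libraries were from wild-type FVB/n mice, called healthy donors in the series' design, and the 4 teNK libraries were from MMTV-PyMT mice, called tumour-bearing there. MMTV-PyMT mice carry the polyoma virus middle T antigen under a mammary tumour virus promoter and develop mammary tumours. All cells of both groups were kept for 12 to 16 h in medium with added cytokines before RNA was taken, so every level below is that of cultured cells. The strain of the MMTV-PyMT mice, the ages, the cytokines and the number of animals behind a library are not given in the sources used here. Every p-value below therefore rests on the spread among these libraries alone, and that spread may be technical.

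The members of the family have different roles. IRF3 and IRF7 are activated by the kinases TBK1 and IKK-epsilon after viral nucleic acids are sensed, and then switch on type I interferon genes. IRF5 acts downstream of Toll-like receptors. IRF9 is the DNA-binding part of ISGF3, the complex through which type I interferon signals. IRF1 is induced by interferon gamma and activates genes of antigen presentation, IRF2 can compete with it for the same sites, and both are needed for normal NK cell development. IRF4 and IRF8 are found mainly in immune cells and bind DNA together with ETS or AP-1 family partners. IRF8 is known for its part in the NK cell response to virus infection.

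In teNK, 6 of the 8 genes were higher than in hNK (*Irf1*, *Irf2*, *Irf4*, *Irf5*, *Irf7* and *Irf8*), *Irf3* was slightly lower, and *Irf9* was not called. Calls rest on edgeR's quasi-likelihood test with Benjamini-Hochberg adjustment over all genes tested, at a threshold of 0.05. Calls were frequent in this comparison, with 26.4% of all tested genes called higher, 25.6% called lower and 51.9% called in either direction, so a call on its own sets little apart. The same 6 genes had no overlap between the libraries of hNK and teNK, against 46.5% of all tested genes. Rises of at least 2-fold were called for 3 of the 8 (*Irf4*, *Irf7* and *Irf8*), against 8.28% of all tested genes. *Irf4* had enough reads to test only through teNK, so its part in these counts could hardly have gone the other way. The median log2 fold change of the 8 genes was 0.83, and that of all tested genes was -0.02.

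Reads on genes numbered 5202131 to 12419324 in hNK and 13111043 to 16209895 in teNK, and hNK 3 and hNK 4 were the shallowest libraries. CPM below are counts scaled to library size with TMM factors, and 3 reads corresponded to 0.242 to 0.577 CPM in hNK and 0.185 to 0.229 CPM in teNK. Where genes are counted above, at or under 1 CPM, the mean of the group is meant. All 10 NK cell marker genes listed were above 1 CPM in both groups, 9 called higher and 1 lower in teNK, with summed levels of 4512 to 5220 CPM in hNK and 8453 to 9225 CPM in teNK. Scaling by library size alone shifted the median log2 fold change of all tested genes by -0.13 and changed the calls from 3665 higher and 3557 lower to 2709 higher and 5114 lower. In bulk RNA, fewer cells of a type and less RNA per cell cannot be told apart. Only the descriptions of teNK libraries mention runs in several lanes, so the run layout and the group cannot be told apart.

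Promoter sequences were compared first, because 3 of the called genes (*Irf1*, *Irf2* and *Irf8*) hold motifs through which interferons or NF-kappa-B act, and the others hold none of those searched. The 250 bases before the annotated start are shown 5′ to 3′ for RefSeq's GRCm38.p6, all on the plus strand, with matched motifs in capitals. The windows are chr11:53769764-53770013 for *Irf1*, chr8:46739495-46739744 for *Irf2* and chr8:120736108-120736357 for *Irf8*.
Irf1: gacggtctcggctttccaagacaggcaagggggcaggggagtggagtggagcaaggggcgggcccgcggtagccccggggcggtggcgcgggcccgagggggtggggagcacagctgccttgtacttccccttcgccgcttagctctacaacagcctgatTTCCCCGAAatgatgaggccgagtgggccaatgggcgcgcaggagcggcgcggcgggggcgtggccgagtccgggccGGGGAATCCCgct
Irf2: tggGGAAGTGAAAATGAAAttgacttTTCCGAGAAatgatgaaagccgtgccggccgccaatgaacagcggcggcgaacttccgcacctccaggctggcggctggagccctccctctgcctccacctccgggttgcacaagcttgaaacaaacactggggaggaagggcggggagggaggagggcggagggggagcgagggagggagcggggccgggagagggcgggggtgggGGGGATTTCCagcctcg
Irf8: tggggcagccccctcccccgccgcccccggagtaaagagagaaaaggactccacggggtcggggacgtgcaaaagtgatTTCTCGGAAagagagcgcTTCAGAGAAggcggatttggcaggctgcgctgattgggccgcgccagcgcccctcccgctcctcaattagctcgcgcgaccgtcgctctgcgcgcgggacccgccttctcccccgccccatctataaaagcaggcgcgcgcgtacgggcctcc
The motifs searched on both strands were the ISRE core GAAANNGAAA, the ETS and IRF composite element GGAANNGAAA, the GAS element TTCNNNGAA, whose pattern is its own reverse complement, and the NF-kappa-B site. All 8 members had a promoter in the table, with 11 promoters in all, each covering 250 bases before and 50 bases after the start. In *Irf1* the GAS match TTCCCCGAA ended 82 bases before the start, and the NF-kappa-B match GGGGAATCCC, which reads as a match on both strands, lay at -13 to -4. In *Irf2* the composite match GGAAGTGAAA at -247 to -238 overlapped the ISRE match GAAAATGAAA at -241 to -232, and a GAS match TTCCGAGAA and an NF-kappa-B match GGGGATTTCC followed downstream. *Irf8* held a pair of GAS matches, TTCTCGGAA at -171 to -163 and TTCAGAGAA at -153 to -145. Among 32851 promoters of 27025 genes, 3.44% held the ISRE core, 2.72% the composite element, 8.30% GAS and 8.46% the NF-kappa-B site. The promoters of *Irf3*, *Irf4*, *Irf5*, *Irf7* and *Irf9*, and the second promoter of *Irf1* and of *Irf8*, held none of these letters. A match describes the sequence only, and binding was not measured.

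*Irf8* (ENSMUSG00000041515, chr8:120736358-120756694), the haematopoietic member that dendritic cells, B cells and NK cells use, was the most strongly expressed family gene of teNK. Its level was 92.3, 117, 145 and 145 CPM in hNK 1 to 4, and 678, 687, 650 and 701 CPM in teNK 1 to 4. The groups were far apart, and the spread was wider in hNK, where hNK 3 and hNK 4 were above hNK 1 and hNK 2. The log2 fold change was 2.69 without hNK 3 and hNK 4 and 2.22 without hNK 1 and hNK 2. Both alternatives were added after the data were seen. The means were 125 ± 25.5 and 679 ± 21.7 CPM (SD, n = 4). On the log2 scale the difference was 2.45 ± 0.11 (SE, edgeR adjusted p = 2.36e-11). Of all tested genes, 1.99% had a larger rise.

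*Irf4* (ENSMUSG00000021356, chr13:30749226-30766976), which activated lymphocytes and plasma cells use, was the scarcest member in both groups. It had 4, 7, 13 and 11 reads in hNK 1 to 4 and 72, 107, 79 and 107 reads in teNK 1 to 4. In CPM these were 0.333, 0.556, 2.14 and 1.99 in hNK and 4.74, 6.79, 6.35 and 8.18 in teNK. Every teNK library was above every hNK library, and hNK 3 and hNK 4 stood well above hNK 1 and hNK 2. *Irf4* had enough reads to test only through teNK, so its call could hardly have been lower. The log2 fold change was 2.67 ± 0.37 (SE, adjusted p = 1.44e-05 in edgeR). Because hNK was split, its size depended on the libraries used: it was 3.83 without hNK 3 and hNK 4 and 1.64 without hNK 1 and hNK 2, with adjusted p of 2.43e-07 and 0.000354 in edgeR, both alternatives added after the data were seen. Leaving out 1 library at a time gave 2.28 to 3.10.

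**Figure D1:**
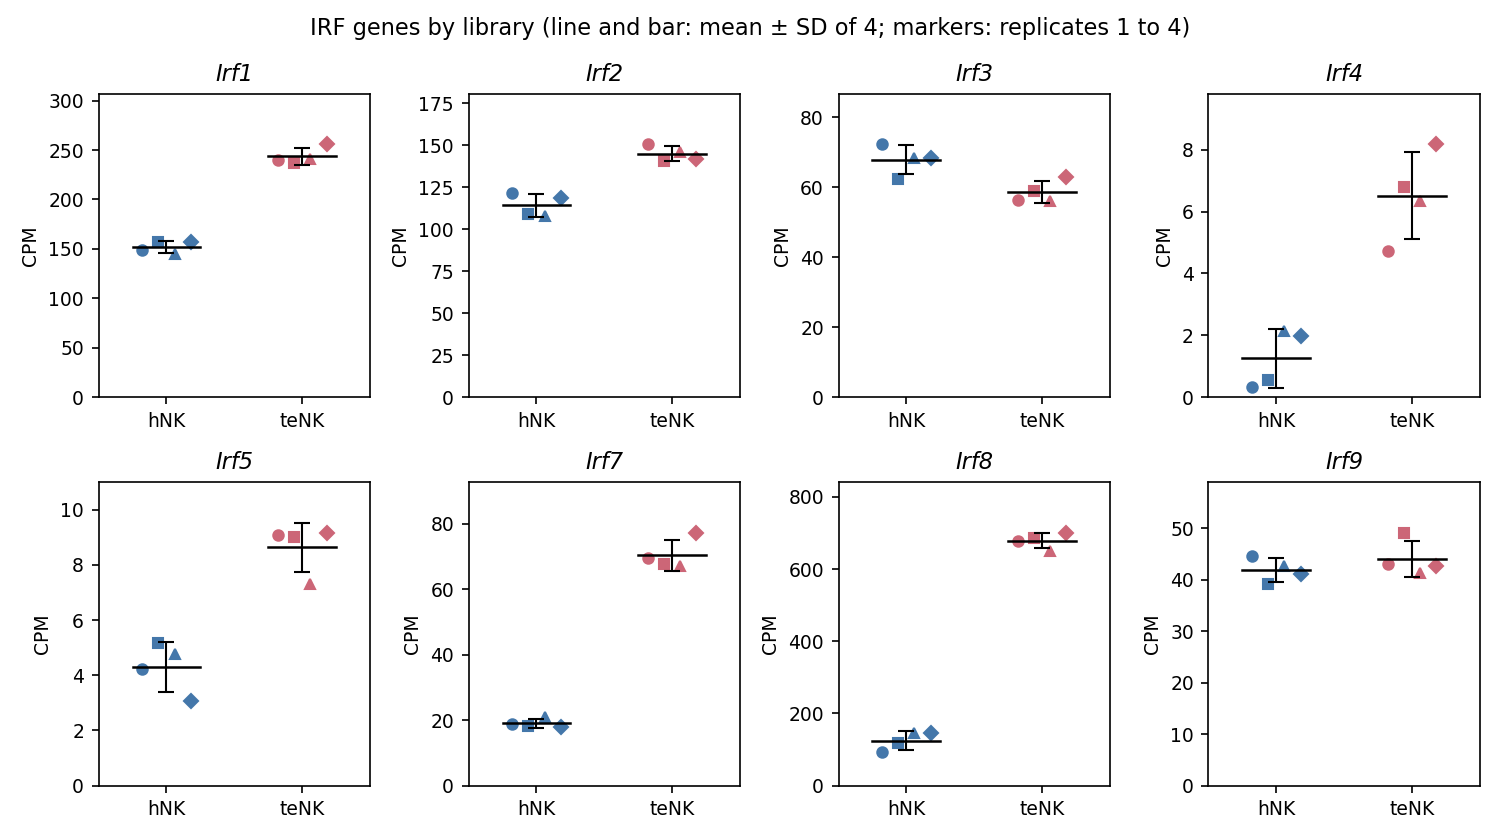
Level of each IRF gene (CPM, vertical axes from 0, each gene on its own scale) in the 4 hNK and 4 teNK libraries; marker shapes are replicates 1 to 4, and lines and bars are the mean ± SD. The groups are apart for *Irf1*, *Irf2*, *Irf4*, *Irf5*, *Irf7* and *Irf8* and overlap for *Irf3* and *Irf9*.

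B cell genes were higher in the same libraries as *Irf4*. B cells express *Irf4* and *Irf8*, and the summed level of 13 B cell marker genes was 1.58, 1.59, 7.59 and 5.96 CPM in hNK 1 to 4 and 50.7, 77.3, 51.7 and 74.4 CPM in teNK 1 to 4. As for *Irf4* and *Irf8*, hNK 3 and hNK 4 were above hNK 1 and hNK 2. None of the 13 genes had a group mean above 1 CPM in hNK and 12 had in teNK, and none was at 0 in a whole group. In single hNK libraries *Ms4a1*, *Cd22* and *Bank1*, the last named after its values were seen, reached 1.15, 1.08 and 1.26 CPM. All 12 tested were called higher. Genes this scarce in hNK pass the read filter only through teNK, so these calls could hardly have gone the other way. *Cr2*, a complement receptor of B cells, was at 0.124 ± 0.158 CPM in hNK and 14.5 ± 3.36 CPM in teNK (SD, n = 4), *Cd22* at 0.436 ± 0.445 and 9.87 ± 1.59 CPM, and *Ms4a1*, which encodes CD20, at 0.419 ± 0.512 and 8.02 ± 2.16 CPM. *Irf4* divided by the B cell sum was 0.211 to 0.350 in hNK and 0.0879 to 0.123 in teNK. The part of B cell RNA in the rise of *Irf4* was not tested. *Irf8* in hNK stood at 92.3 CPM or more where the B cell sum was at most 7.59 CPM, and in teNK its level was 650 to 701 CPM beside a sum of at most 77.3 CPM. The part of B cell RNA in its rise was not tested either.

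Dendritic cells and monocytes also use these factors, and their lists were measured the same way. Of 10 plasmacytoid dendritic cell genes, 4 were tested, with 2 higher and 2 lower, and the sum was 80.6 to 85.5 CPM in hNK and 80.8 to 96.4 CPM in teNK. Most of it was *Tcf4*, a transcription factor that lymphocytes also express, at 66.6 ± 4.10 and 85.8 ± 6.85 CPM. *Klk1* and *Cd300c* were at 0 in both groups, *Cd209d* in hNK and *Cox6a2* in teNK. *Pacsin1* (12.3 and 0.981 CPM) and *Cox6a2* (3.44 CPM in hNK) were called lower. Besides *Tcf4*, the gene called higher was *Ly6d*, named after its values were seen, at 0.0864 CPM in hNK (2 reads in all) and 1.77 CPM in teNK. There *Ly6d* and *Tcf4* were the only ones of the 10 with a mean above 1 CPM. Of 10 conventional dendritic cell genes, 4 were tested, with 1 higher (*Wdfy4*, 1.07 and 7.28 CPM) and 1 lower, and the sum was 16.0 to 19.2 CPM in hNK and 21.7 to 25.7 CPM in teNK. *Xcr1* and *Clec9a* were at 0 in hNK and *Batf3* in teNK, while *Zbtb46* and *Naaa*, at under 10 CPM in both groups, were not called. For the monocyte and macrophage list the sum was lower in teNK, at 502 to 546 CPM against 606 to 801 CPM, with 4 of 13 genes tested, 2 higher and 1 lower. That sum was mostly *Ccr2*, a chemokine receptor (665 and 390 CPM), and *Ms4a6c* (62.0 and 121 CPM). *Lyz2*, a myeloid lysozyme, was at 0.459 and 6.95 CPM, and *C1qa*, *C1qb*, *C1qc* and *Vcam1* were at 0 in hNK. *Ly6d*, *Wdfy4* and *Lyz2*, all called higher, passed the read filter only through teNK. *Pacsin1*, *Cox6a2* and the conventional dendritic cell gene called lower passed it only through hNK. These calls could hardly have gone the other way. The part of these cells in the levels of *Irf8*, *Irf5* and *Irf7* was not tested.

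*Irf7* (ENSMUSG00000025498, chr7:141262706-141266481, minus strand), the inducible factor that drives most interferon alpha genes, was at 18.9, 18.3, 21.1 and 17.9 CPM in hNK 1 to 4 and at 69.4, 67.7, 67.1 and 77.3 CPM in teNK 1 to 4. Its libraries were tightly grouped on both sides. The means were 19.03 ± 1.44 and 70.4 ± 4.70 CPM (SD, n = 4). On the log2 scale the difference was 1.89 ± 0.08 (SE, edgeR adjusted p = 9.10e-12), and 3.18% of all tested genes rose more.

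*Irf3* (ENSMUSG00000003184, chr7:44997648-45002848), the constitutive counterpart that is regulated mainly by phosphorylation, was at 72.3, 62.4, 68.3 and 68.5 CPM in hNK 1 to 4 and at 56.3, 59.0, 56.1 and 62.9 CPM in teNK 1 to 4. The groups overlapped, since teNK 4 was above hNK 2. The log2 fold change was -0.21 ± 0.07 (SE, 95% interval -0.36 to -0.07), with an adjusted p of 0.0161 in edgeR. This call was lost without teNK 1 (adjusted p = 0.0569 in edgeR), without teNK 3 (0.0568), and without both hNK 3 and hNK 4 (0.0530).

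*Irf5* (ENSMUSG00000029771, chr6:29526625-29541871), better known from myeloid cells and B cells, had 51, 65, 29 and 17 reads in hNK 1 to 4 and 138, 142, 91 and 120 reads in teNK 1 to 4. These were 4.24, 5.16, 4.78 and 3.07 CPM against 9.08, 9.02, 7.31 and 9.17 CPM. All teNK libraries were above all hNK libraries, with teNK 3 below the other teNK libraries. The log2 fold change was 0.97 ± 0.16 (SE, adjusted p = 0.000117 in edgeR).

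*Irf1* (ENSMUSG00000018899, chr11:53770014-53778374), the interferon gamma-induced activator whose promoter holds the GAS and NF-kappa-B matches shown above, was at 148, 157, 145 and 157 CPM in hNK 1 to 4 and at 240, 237, 241 and 256 CPM in teNK 1 to 4. The libraries of each group lay close together and the groups were apart. The log2 fold change was 0.68 ± 0.06 (SE, adjusted p = 5.43e-08 in edgeR), and 13.1% of all tested genes rose more.

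*Irf2* (ENSMUSG00000031627, chr8:46739732-46847458), which can repress at the sites IRF1 uses, was at 121, 109, 108 and 119 CPM in hNK 1 to 4 and at 151, 141, 146 and 142 CPM in teNK 1 to 4. Its rise was small but without overlap, at 0.34 ± 0.06 (SE) on the log2 scale (edgeR adjusted p = 0.000175). Larger rises were seen in 23.5% of all tested genes.

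*Irf9* (ENSMUSG00000002325, chr14:55603571-55610030), the DNA-binding subunit of ISGF3, was at 44.6, 39.1, 42.7 and 41.0 CPM in hNK 1 to 4 and at 43.0, 49.1, 41.2 and 42.7 CPM in teNK 1 to 4. The groups overlapped throughout. The log2 fold change was 0.07 ± 0.08 (SE, adjusted p = 0.447 in edgeR), and its 95% interval of -0.09 to 0.24 limits the difference on either side.

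**Figure D2:**
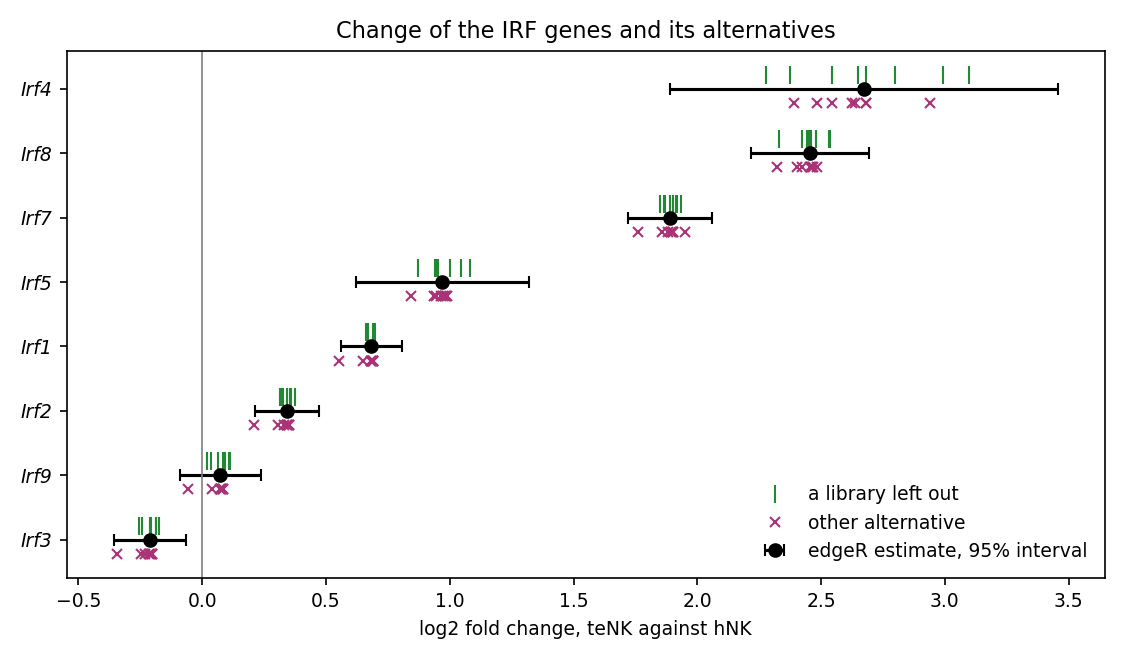
Log2 fold change of each IRF gene, teNK against hNK (horizontal axis), with the edgeR estimate and its 95% interval (black), the estimates with 1 library left out (green ticks) and other scalings, filters, depths and tools (purple crosses). *Irf4* has the widest interval (1.89 to 3.46), and only the interval of *Irf9* crosses 0.

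Levels were compared between genes as TPM, a unit that divides reads by the length of a gene's annotated exons and scales every library to the same total. In hNK the order was *Irf1* (98.5 ± 3.55 TPM, SD, n = 4), *Irf3* (51.1 ± 5.58), *Irf8* (45.9 ± 10.8), *Irf2* (39.9 ± 3.34), *Irf9* (20.1 ± 2.18), *Irf7* (13.1 ± 1.76), *Irf5* (3.83 ± 0.809) and *Irf4* (0.675 ± 0.527). The ranges of *Irf3* and *Irf8* overlapped, as did those of *Irf8* and *Irf2*, so the place of *Irf8* is not resolved. The lowest *Irf3* library (43.2 TPM) was just above the highest *Irf2* library (42.9 TPM). In teNK *Irf8* came first at 262 ± 15.9 TPM, followed by *Irf1* (167 ± 6.39). *Irf2* (53.3 ± 2.13), *Irf7* (50.7 ± 2.87) and *Irf3* (46.3 ± 3.29) came next, each overlapping its neighbour, and then *Irf9* (22.3 ± 2.90), *Irf5* (8.11 ± 0.947) and *Irf4* (3.62 ± 0.803). Within the summed TPM of the 8 genes, *Irf8* made up 16.7% in hNK and 42.7% in teNK, *Irf1* 36.2% and 27.2%, *Irf3* 18.7% and 7.55%, and *Irf7* 4.78% and 8.27%. The sum itself was 273 ± 22.1 TPM in hNK and 613 ± 31.7 TPM in teNK. With the length of the longest transcript instead, *Irf8* still came first in teNK, but *Irf3* (65.4 TPM) was above *Irf7* (49.2 TPM) there, and in hNK the ranges of *Irf3* (from 62.7 TPM) and *Irf2* (up to 68.0 TPM) overlapped.

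**Figure D3:**
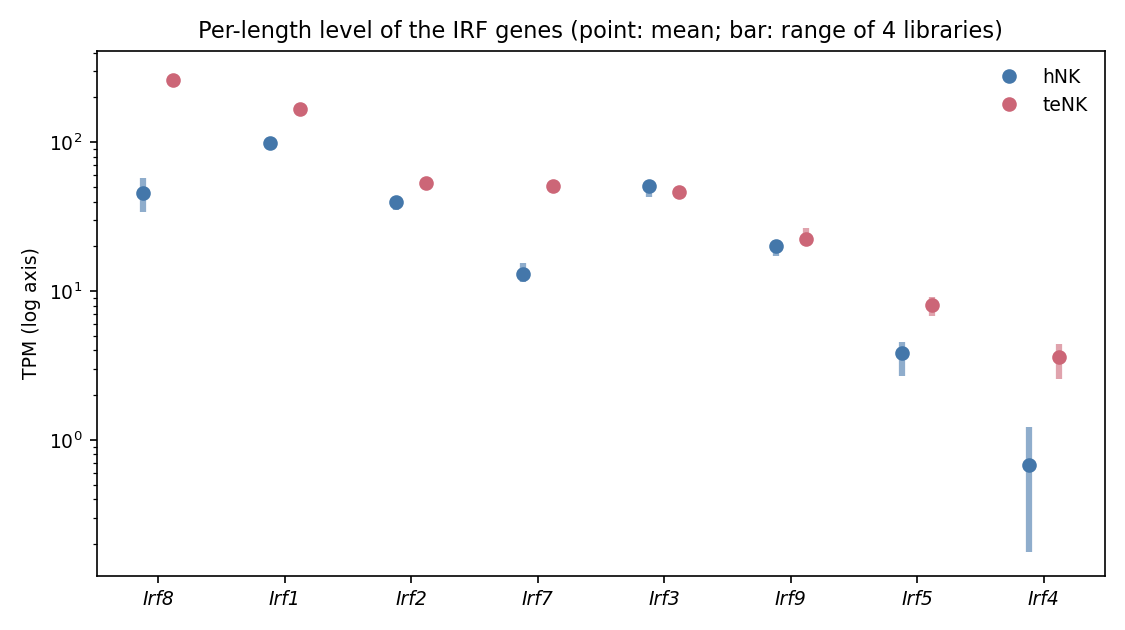
Level per length of annotated exons (TPM, log axis) of the IRF genes in hNK (blue) and teNK (red). Points are means of 4 libraries and bars the range. *Irf8* passes *Irf1* in teNK, and *Irf7* is at 13.1 TPM in hNK and 50.7 TPM in teNK while *Irf3* is at 51.1 and 46.3 TPM.

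Ratios of 2 genes within a library do not depend on the scaling between libraries, and 3 were compared, as log2 ratios of reads with 0.5 added to each count. *Irf7* to *Irf3*, the induced against the constitutive kinase-activated factor, had log2 ratios of -1.94, -1.77, -1.69 and -1.93 in hNK 1 to 4 and 0.30, 0.20, 0.26 and 0.30 in teNK 1 to 4. Reads of *Irf3* outnumbered those of *Irf7* in every hNK library and the reverse held in every teNK library. The 4.28-fold difference between the group means had p = 0.0286 in an exact two-sided permutation test, the smallest p that the 70 assignments allow. It was 0.0429 after Benjamini-Hochberg adjustment over the 3 ratios. Because *Irf7* was already known to be far apart between the groups and *Irf3* little changed, this p adds no evidence to their calls. *Irf1* to *Irf2*, the activator against its competitor, had log2 ratios of 0.29, 0.52, 0.43 and 0.40 in hNK and 0.67, 0.75, 0.73 and 0.85 in teNK. The groups were apart by a mean of 0.34 (exact permutation p = 0.0286, adjusted 0.0429). Because *Irf1* was already known to have risen more than *Irf2*, this p adds no evidence either. *Irf8* to *Irf4*, which share binding partners, had log2 ratios of 7.95, 7.62, 6.03 and 6.13 in hNK and 7.15, 6.65, 6.67 and 6.41 in teNK. Here hNK 1 and hNK 2 were above and hNK 3 and hNK 4 below all teNK libraries, and the mean difference of -0.21 was not called (exact permutation p = 0.714).

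**Figure D4:**
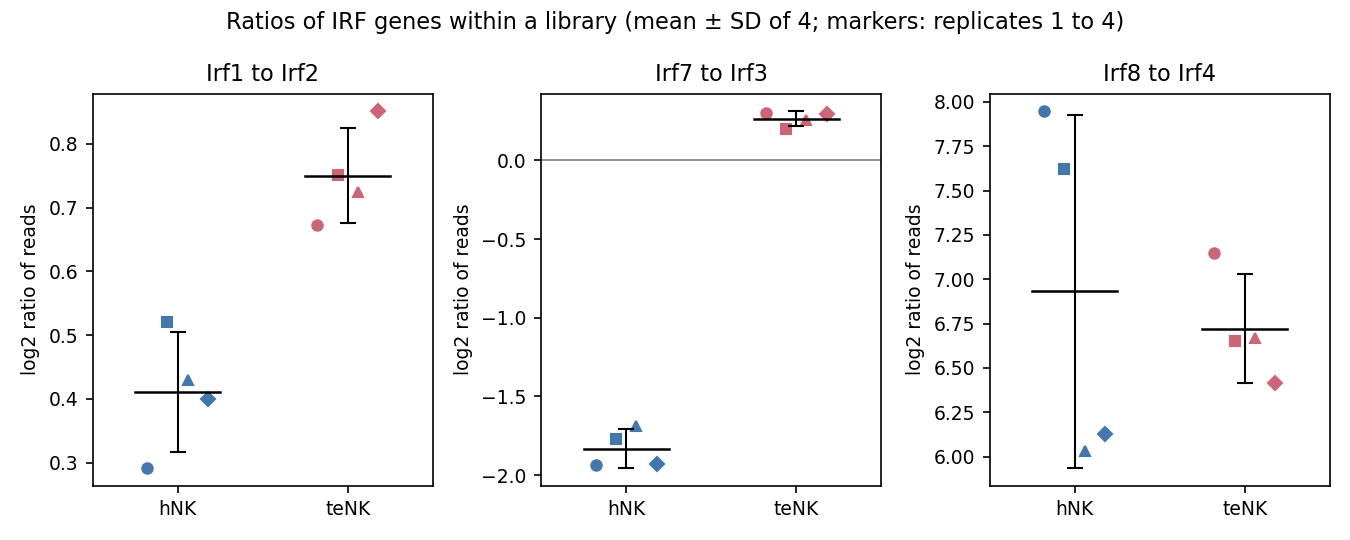
Log2 ratio of reads of 2 IRF genes within each library (vertical axes differ between panels and do not start at 0; marker shapes are replicates 1 to 4, lines and bars the mean ± SD). *Irf7* to *Irf3* goes from a mean of -1.83 in hNK to 0.26 in teNK, *Irf1* to *Irf2* from 0.41 to 0.75, and *Irf8* to *Irf4* overlaps.

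Upstream of IRF3, IRF5 and IRF7, none of the sensor, adaptor and kinase genes that could be tested was called lower. Of all tested genes, 26.4% were called higher and 25.6% lower, and counts in this and the following lists stand beside those shares. With so few genes in a list, such counts set little apart. Of 10 nucleic acid sensor genes, 7 were tested, with 3 higher, none lower and a median log2 fold change of 0.17. *Zbp1*, a sensor of Z-form nucleic acids, was at 15.8 ± 2.03 CPM in hNK and 54.1 ± 2.08 CPM in teNK (SD, n = 4), *Dhx58*, which encodes LGP2, at 5.51 and 10.2 CPM, and *Ddx58*, which encodes RIG-I, at 130 and 155 CPM. Of 20 genes for adaptors and kinases, 19 were tested, with 13 higher, none lower and a median of 0.33. *Ikbke*, which encodes the kinase IKK-epsilon, rose from 30.9 ± 2.47 to 67.8 ± 1.32 CPM, or by 1.15 ± 0.07 (SE) on the log2 scale (edgeR adjusted p = 1.20e-09). *Traf3*, an adaptor that recruits these kinases, rose by 0.97 on the log2 scale, *Unc93b1*, a chaperone of endosomal Toll-like receptors, by 0.86, and *Ikbkb* (IKK-beta, an IRF5 kinase) by 0.64. *Tbk1*, the main IRF3 kinase, was not called, with a log2 fold change of 0.11; it was named after its value was seen.

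At the level of interferons, 18 of the 20 genes listed had no read in any library. *Ifng*, the interferon gamma that NK cells secrete, was the only one tested, and rose from 20.2 ± 4.62 to 121 ± 7.70 CPM (SD, n = 4), or by 2.55 ± 0.11 (SE) on the log2 scale (edgeR adjusted p = 1.39e-11). Of 11 receptor and signalling genes, 9 were tested, with 4 higher, 1 lower and a median of 0.01. *Tyk2*, a kinase of the type I interferon receptor, rose from 106 to 294 CPM (log2 fold change 1.47), *Jak1* from 2015 to 3310 CPM (0.72) and *Jak2* from 167 to 219 CPM (0.39). *Il10rb*, a receptor chain for interferon lambda and interleukin 10, fell by 0.24 on the log2 scale.

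Genes for the partners with which IRF4 and IRF8 bind DNA included large rises. Of 19 partner and cofactor genes, 16 were tested, with 10 higher, none lower and a median of 0.53. The AP-1 genes *Jun* (42.3 ± 12.0 to 454 ± 17.2 CPM) and *Junb* (108 ± 24.6 to 707 ± 92.5 CPM) rose by 3.38 and 2.69 on the log2 scale. *Ikzf1*, the zinc finger factor Ikaros, rose from 357 to 909 CPM (1.35), and *Ets1*, an ETS factor of lymphocytes, from 647 to 1271 CPM (0.97). *Spib* of this list, named for that reason after its values were seen, is also one of the B cell markers above. It had 5 reads over the hNK libraries together and 127 over the teNK libraries, and was among the genes called higher. It passed the read filter only through teNK, so its call could hardly have been lower.

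Negative regulators went both ways. All 12 genes listed were tested, with 5 higher, 3 lower and a median of 0.15. *Usp18*, called higher and named after its values were seen, had 26 reads over the hNK libraries and 126 over the teNK libraries. *Usp18* passed the read filter only through teNK, so its call could hardly have been lower. *Tnfaip3*, which encodes the ubiquitin-editing enzyme A20, rose from 56.9 ± 5.04 to 1231 ± 137 CPM, or by 4.43 ± 0.10 (SE) on the log2 scale (edgeR adjusted p = 4.93e-15). *Socs1*, an inhibitor of JAK kinases, fell from 87.8 ± 3.99 to 26.4 ± 2.14 CPM, with a log2 fold change of -1.73 ± 0.07 (SE). *Lyn*, a kinase that restrains IRF5, rose by 0.50, and *Trim28*, a corepressor that acts on IRF5 and IRF7, fell by 0.43 on the log2 scale.

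Target genes were mixed. Of 30 genes listed for ISGF3 and IRF7, 22 were tested, with 12 higher, 3 lower and a median of 0.71. Many were scarce: 15 were at or under 1 CPM in hNK and 9 in teNK. Genes that scarce in hNK pass the read filter only through teNK, so their calls could hardly be lower. They include *Ifit1*, *Isg15*, *Mx1*, *Oas1a*, *Oas3* and *Cmpk2*, called higher and named after their values were seen. They also raise the median. *Ifit2*, an antiviral RNA-binding protein gene, rose from 11.1 to 24.3 CPM (log2 fold change 1.13), *Trim30a* from 83.6 to 140 CPM (0.75) and the nuclear body gene *Sp100* from 468 to 747 CPM (0.68). *Isg20*, an interferon-induced exonuclease gene, fell from 9.78 ± 2.07 to 0.683 ± 0.196 CPM (SD, n = 4), with a log2 fold change of -3.84 ± 0.24 (SE). *Isg20* passed the read filter only through hNK, so its call could hardly have been higher. Of 23 genes listed for IRF1, 22 were tested, with 12 higher, 2 lower and a median of 0.21. *Nlrc5*, the activator of MHC class I genes, rose from 53.2 to 115 CPM (1.11) and *Cd274*, which encodes PD-L1, from 20.6 to 39.5 CPM (0.97). The interferon-induced GTPase genes *Gbp3* and *Irgm1* fell by 0.60 and 0.45 on the log2 scale. Of 8 genes listed for IRF4 or IRF8, 4 were tested and all 4 were higher, with a median of 1.45, against 26.4% of all tested genes called higher. *Zbtb32*, named after its values were seen, had too few reads to test. It had 24 reads over the hNK libraries and 7 over the teNK libraries. *Prdm1*, which encodes the repressor Blimp-1, rose from 76.3 to 201 CPM (1.39), *Klf4* from 8.78 to 23.9 CPM (1.52) and *Bcl6* from 38.4 to 44.5 CPM (0.20, adjusted p = 0.0477 in edgeR). *Cybb*, the phagocyte oxidase gene that myeloid cells and B cells express, had 6 reads over the hNK libraries together and 158 over the teNK libraries. It passed the read filter through teNK alone.

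**Figure D5:**
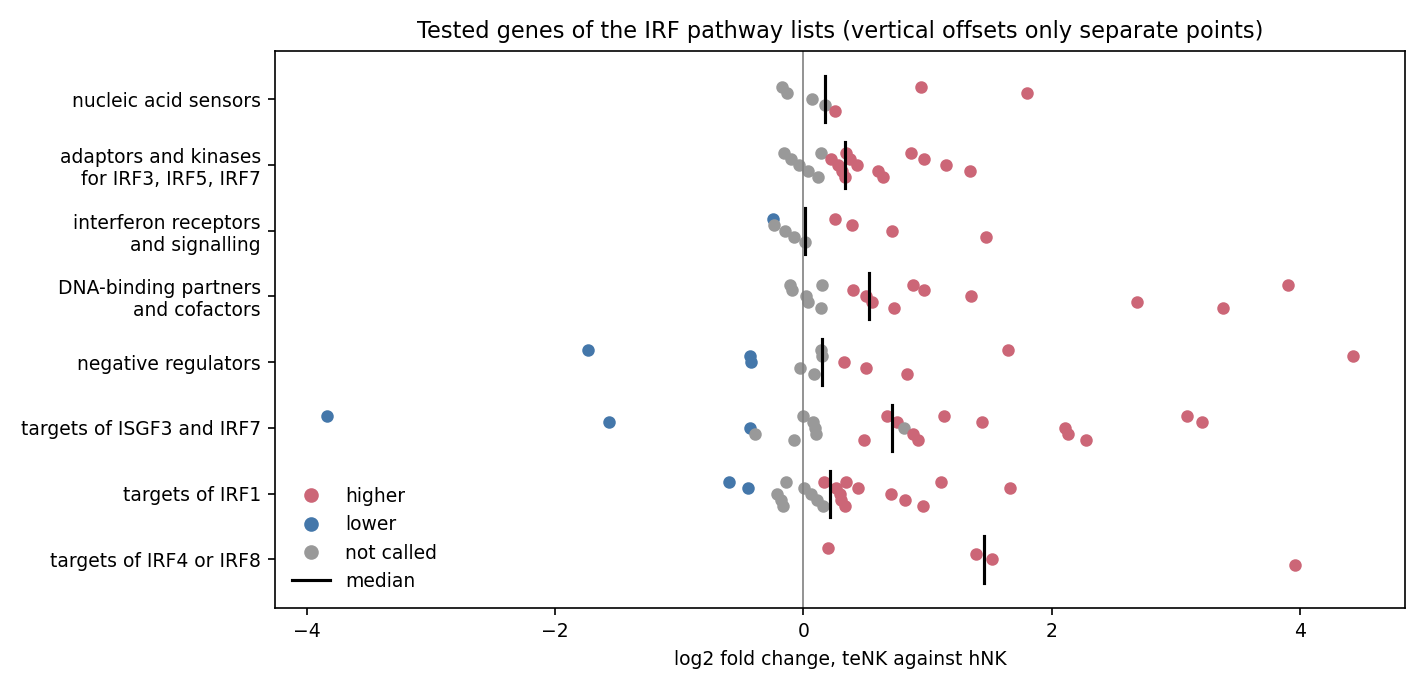
Log2 fold change, teNK against hNK (horizontal axis), of each tested gene in the lists around the IRF family (rows); red points were called higher, blue lower and grey not called, and black lines are medians. Medians range from 0.01 for interferon receptors and signalling genes to 1.45 for the 4 tested targets of IRF4 or IRF8.

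The genes whose pattern over the 8 libraries was most like a member were sought for the 3 that rose at least 2-fold, among 10630 genes whose log2 CPM averaged at least 2. Likeness was the root mean square difference of log2 CPM after centring on the mean of the libraries, in which the difference between groups dominates. Among the nearest to *Irf8* were *Serpinb9b* (0.17), a serpin gene, at 11.1 CPM in hNK and 52.5 CPM in teNK, and *Sla* (0.17), an adaptor gene, at 56.9 and 283 CPM. Nearest to *Irf7* were *Rap1gap2* (0.06), *Atp2a3* (0.09), a calcium pump gene, and *Gm19585* (0.09). For *Irf4* the nearest were less alike, namely the histone genes *Hist1h3b* (0.33) and *Hist1h3c* (0.35) and *Tnni1* (0.38).

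Overlapping genes bear on these counts, because the strand setting of the counting is not given in the sources used here. *Irf5* shares 411 exonic bases with *Tnpo3* on the opposite strand, which was not called (139 and 135 CPM). *Irf1* shares 135 exonic bases with *Gm17334* (0.940 and 1.42 CPM, not called), *Irf7* 45 with *Phrf1* (146 and 157 CPM, not called), and *Irf9* 123 with *Rnf31* on its own strand (69.7 and 67.4 CPM, not called). *Irf3* shares 88 with *Bcl2l12* on the opposite strand, which like *Irf3* was lower in teNK (log2 fold change -0.49, adjusted p = 0.00992 in edgeR). *Irf2*, *Irf4* and *Irf8* share no exonic base with another gene. Whether shared bases added to the counts of a member was not tested.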

How the data were processed

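Poly(A) RNA of 8 libraries was sequenced after a stranded kit, per the labels' protocols. The authors deposited whole-number read counts per Ensembl gene for each library, with no normalization. Per the submitters' processing notes, the tools were HISAT2 2.1.0, SAMtools and HTSeq with GRCm38. Summary lines (32.3% to 41.2% of reads in no gene, 1.52% to 2.07% ambiguous) were left out. GENCODE M21 gave symbols and positions for 54809 of 54838 identifiers. Groups were tested in edgeR 4.0.16 (R 4.3.3) with filterByExpr, TMM and the quasi-likelihood F test on group alone, over 13903 of 27313 genes with a read. The alternatives were other scalings, no filter, thinning, a replicate block, DESeq2 1.42.0, limma 3.58.1 voom, and libraries left out. The SE is the log2 fold change divided by the square root of F. Scripts were tested on simulated data. Floors cover counting error only. No libraries were identical or agreed within sampling noise.

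The members, lists and tests were chosen with earlier results of these data known. Text names all members, up to 4 called genes of each pathway list by adjusted p, up to 3 highest-expressed genes of a marker list, overlapping and neighbouring genes, and the 3 genes most like each member that rose at least 2-fold. Some genes that this rule names are not reported here. Promoters are RefSeq's (GRCm38.p6).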

Additional observations from a re-analysis of the deposited data

Results flagged for a closer look

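In teNK, *Irf5* stood at 7.31 CPM in replicate 3 and at 9.02 to 9.17 CPM in the other libraries. The gap was 0.916 of the group's range and above Dixon's 95% critical value for 4 samples. This was the only one of 22 sets of 4 values checked that passed, and chance flags about 1 in 20. All teNK values remained above the hNK maximum of 5.16 CPM.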

How the results depend on the processing

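Over 16 other scalings, filters, depths, tools and sets of libraries, and 2 more chosen after the data were seen, 6 of the 8 genes were called higher every time. The 16 gave log2 fold changes of 0.55 to 0.70 for *Irf1*, 0.21 to 0.37 for *Irf2*, 2.28 to 3.10 for *Irf4*, 0.84 to 1.08 for *Irf5*, 1.76 to 1.95 for *Irf7* and 2.32 to 2.54 for *Irf8*. Leaving out 1 library at a time gave -0.26 to -0.18 for *Irf3* and 0 to 1 genes called lower, with the call lost without teNK 1 (-0.19) or teNK 3 (-0.19). Without both hNK 3 and hNK 4, *Irf3* was at -0.21 (adjusted p = 0.0530 in edgeR) and 0 genes were called lower. Those fits hold fewer samples. With library size only, *Irf9* reversed to -0.056 (adjusted p = 0.585 in edgeR), where the median of all genes moved too. The *Irf8* to *Irf4* difference reversed to 0.016 with 2 counts added, and leaving out 1 library gave -0.51 to 0.13, with 0.13 without hNK 1 and 0.021 without hNK 2. The cause of these reversals was not tested. With 1 library left out, ratios have a smallest exact p of 0.0571, so they were taken as values with no test. TPM of *Irf1*, *Irf2*, *Irf3*, *Irf8* and *Irf9* moved beyond 1 SD with the longest transcript.

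Same-numbered libraries did not deviate together (correlations 0.045, -0.107, 0.145 and 0.018), and differently numbered ones had -0.18 to 0.225. These values gave no sign that the numbers pair libraries, but they cannot exclude it. With the replicate block, 3581 genes were called higher and 3401 lower, 6 members higher and 1 lower, and the *Irf4* log2 fold change was 2.63. The low reads of *Irf4* and *Irf5* limit their precision, most in hNK.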

Other observations

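Genes next to the family's loci went in either direction. *Rassf7* near *Irf7* was lower in teNK (6.45 ± 1.47 against 2.98 ± 0.439 CPM, SD, n = 4, log2 fold change -1.15), as was *Prmt1*, an arginine methyltransferase gene near *Irf3* (40.7 against 29.9 CPM, -0.44). *Dusp22* and *Exoc2* on either side of *Irf4* were higher, by log2 fold changes of 0.82 and 0.23. *Cox4i1* before *Irf8* (92.7 and 98.2 CPM) and *Scaf1* after *Irf3* (61.7 and 59.5 CPM) were not called.

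Marker lists of cells outside the lineages named so far had these summed levels. The T cell sum was 372.7 to 416 CPM in hNK and 372.4 to 396 CPM in teNK, mostly *Trbc1* and *Lef1*, neither called. Of 11 genes, 7 were tested, with 1 higher (*Cd3d*, log2 fold change 1.22) and 1 lower (*Cd6*, -4.31), both named after their values were seen. Platelet and megakaryocyte genes summed to 19.8 to 44.1 CPM in hNK and 179 to 311 CPM in teNK. All 10 tested of 11 were higher, among them *Vwf*, *Ppbp* and *Itga2b*. Of the 11, 7 were at or under 1 CPM in hNK, and those of them tested passed the read filter through teNK. All 9 neutrophil genes were at 0 in hNK, and they summed to 1.65 to 6.71 CPM in teNK. Plasma cell genes summed to 0.476 to 1.48 CPM in hNK and 2.17 to 3.49 CPM in teNK, basophil genes to 0.249 to 1.26 and 3.13 to 4.97 CPM, and erythroid genes to at most 0.361 and 6.86 CPM. The epithelial sum was 17.0 to 23.3 CPM in hNK and 0.994 to 2.04 CPM in teNK, mostly *Cdh1* and *Epcam*, both lower, with *Krt8*, *Krt5*, *Krt14*, *Csn2* and *Wap* at 0 in both groups.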
